A study of Mus musculus with 17 samples.

Results

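The genes described here are 9 transcription regulators of cortical projection neurons: Tbr1, Bcl11b, Fezf2, Cux1, Cux2, Rorb, Neurod6, Neurod2 and Lmo4. They were taken as every probe set of the array whose single gene symbol is 1 of these 9, which gave 26 of the 45037 probe sets analysed and all 9 of the genes, out of 18193 genes with such probe sets. Cux1 has 9 of them, Bcl11b 4, Cux2, Rorb and Neurod2 3 each, and Tbr1, Fezf2, Neurod6 and Lmo4 1 each. The probe sets were picked by gene name, but the 9 genes were chosen with earlier results of these data known. Gene names are used throughout with the Affymetrix identifier of the probe set, and for a gene with several probe sets the lead probe set is the one with the highest mean over the 17 arrays.

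All 17 Affymetrix mouse arrays carried mRNA from adult female C57BL/6 mouse cortex, a single preparation that served to test how well antisense RNA amplification keeps expression levels when the input is diluted to single-cell amounts. Inputs of 0.1, 1 and 10 pg were each amplified for a total of 4 rounds in 3 replicates; for 2 rounds there were 3 replicates of 0.1 and 1 pg and a single array of 10 pg, and 5 µg of mRNA went unamplified onto a single array, called bulk. Replicates were separate amplifications of this mRNA and not separate animals, so every p-value below measures the spread of dilution, amplification and hybridization. A level is a log2 value with the array median set to 0, after the arrays were brought to a common range, and its percentile is its place among the 45037 probe sets of the same array. The mRNA was that of whole cortex, so a level does not tell how many cells held a transcript from how much each held. All arrays drew on the same preparation, so the cells behind it did not differ between groups.

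Projection neurons are the glutamatergic cells that send axons out of the cortex or across it, and their layer and target are set by a network of transcription factors that is partly kept in the adult. Tbr1, a T-box factor, marks corticothalamic neurons of layer 6. Fezf2 and Bcl11b (also called Ctip2), both zinc finger proteins, specify the subcerebral neurons of layer 5. Cux1 and Cux2, homeobox proteins, mark the upper layers, and Rorb, an orphan nuclear receptor, marks layer 4. Neurod2 and Neurod6 are basic helix-loop-helix factors shared by excitatory neurons of most layers, and Lmo4 is a LIM-only adaptor that binds other factors without contacting DNA itself. Bcl11b is also found in cortical interneurons and Cux1 in many tissues.

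Arrays differed in resolution. The 10 pg array after 2 rounds held 872 distinct values and the 0.1 pg arrays after 2 rounds held 1258, 1577 and 2102, against 1691 to 4345 on the others, so that many probe sets shared a value there. The 26 probe sets took 15 distinct values on the 10 pg array after 2 rounds, and 15, 15 and 20 on the 0.1 pg arrays after 2 rounds, against 24 to 26 on the arrays of 4 rounds and 26 on bulk. On replicate 1 of 0.1 pg after 2 rounds, 3 of the 26 sat exactly at the array median, as did 8.03% of all probe sets. In bulk, all 6 measured excitatory neuron markers lay above the array median, with a mean of 3.20, and so did 5 of 8 inhibitory, 6 of 9 astrocyte, 7 of 8 oligodendrocyte, 5 of 9 microglia and 6 of 8 endothelial markers. The difference between 3′ and 5′ probe sets of b-actin after 4 rounds was -0.81 ± 0.156 for 0.1 pg and 1.13 ± 0.551 for 10 pg (SD, n = 3 arrays each), that of Gapdh 3.71 ± 0.029 for 0.1 pg and 4.73 ± 0.207 for 10 pg, and that of the transferrin receptor 6.62 ± 0.769 for 0.1 pg and 4.74 ± 0.183 for 10 pg. The inputs did not overlap in these differences, and their part in the results below was not tested.

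By their median percentile, the 26 probe sets stood high in bulk and nearer the middle of the array after amplification, but single probe sets went both ways. After 4 rounds their median percentile was 44.8 ± 3.91 for 0.1 pg, 43.0 ± 6.93 for 1 pg and 63.1 ± 6.32 for 10 pg (SD, n = 3 arrays each). After 2 rounds it was 49.3 ± 6.81 for 0.1 pg and 45.1 ± 6.08 for 1 pg (SD, n = 3 arrays each) and 56.2 on the 10 pg array, and bulk had 76.7. The mean of the amplified groups was below the bulk array for 16 of the 26 and above it for 10. Between 9 and 13 of the 26 lay above the array median on the 0.1 pg arrays after 4 rounds, 10 to 13 on the 1 pg arrays and 13 to 15 on the 10 pg arrays, against 18 in bulk. The replicate SD of the 26 after 4 rounds had a median of 0.54 for 0.1 pg, 0.48 for 1 pg and 0.55 for 10 pg of input, and over all probe sets 0.44 for 0.1 pg, 0.52 for 1 pg and 0.42 for 10 pg. At 0.1 pg after 2 rounds the median SD of the 26 was 1.06, and 14 of them had an SD above 1, where 38.9% of all probe sets did.

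**Figure D1:**
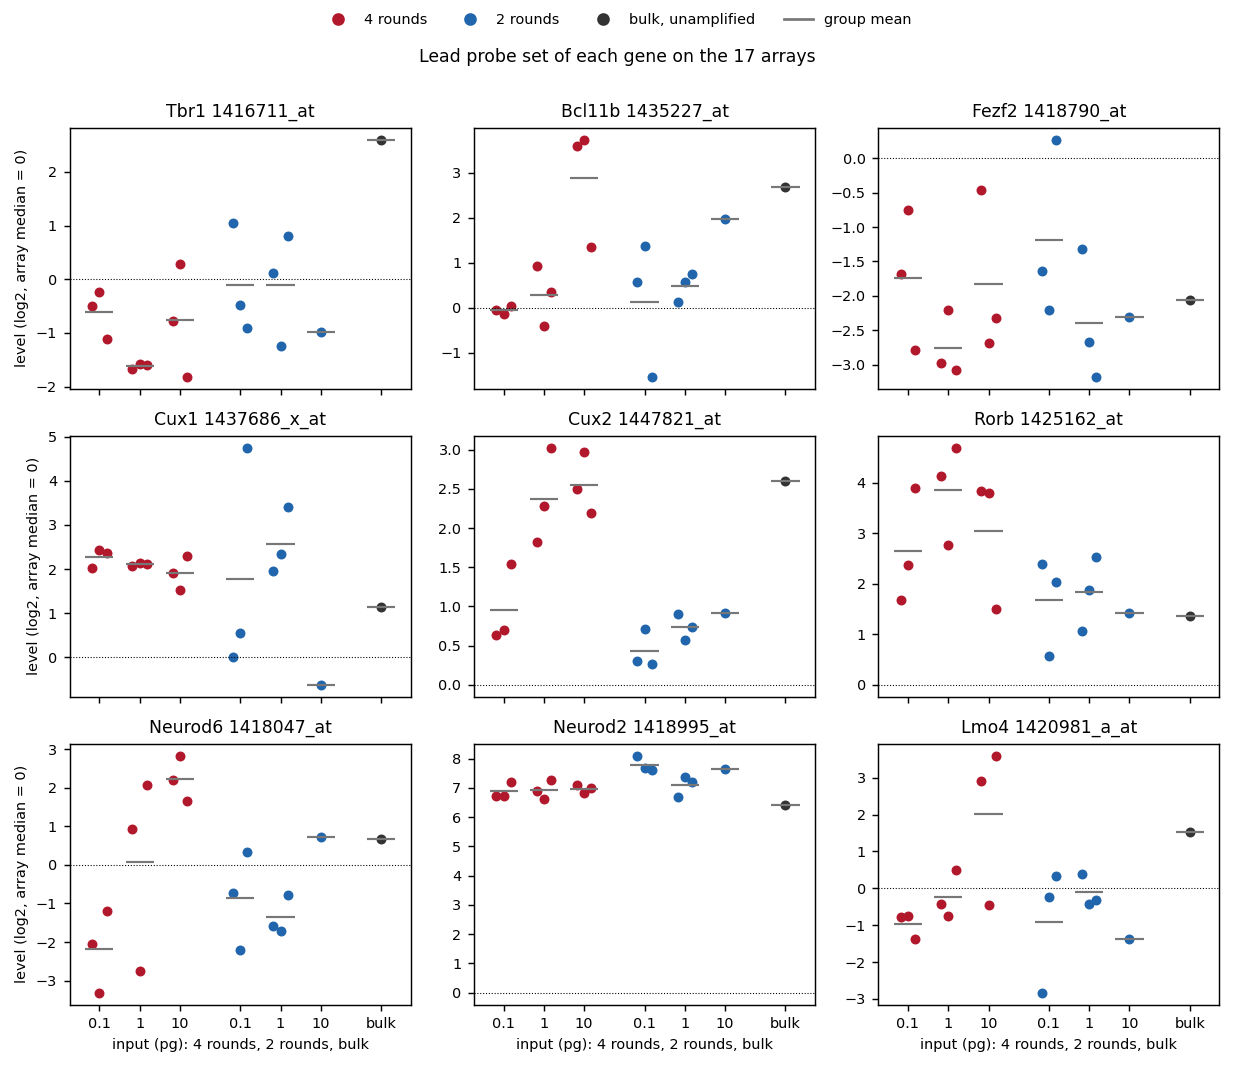
Level of the lead probe set of each of the 9 genes (y axis, log2, array median at 0, own scale per panel) on every array, by input in pg (x axis) after 4 rounds (red), after 2 rounds (blue) and in bulk (black), with grey lines at group means. Bcl11b, Neurod6 and Lmo4 averaged highest at 10 pg after 4 rounds, Tbr1 was highest in bulk, and Neurod2 stayed between 6.42 and 8.11 on all 17 arrays.

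The comparison of 0.1 pg with 10 pg after 4 rounds asked how the lowest input differed from the highest, and it gave the only calls among the members at an adjusted p of 0.05. Neurod6, Bcl11b (by 2 probe sets), Lmo4 and Cux2 (by 1 of 3) fell, and 1 of the 9 probe sets of Cux1 rose. This is 6 of 26 probe sets, or 23.1%, against 8.86% of all 45037 called by limma in this comparison, while the methods' t-test called 0 of 26 and 1580 of all. In the lower direction 5 of 26 were called, against 4.83% of all probe sets, and in the higher direction 1 of 26, against 4.04%. The direction over all probe sets turned with the processing: 1818 were called higher and 2174 lower here, whereas the deposited values gave 2786 higher and 2256 lower and the compared groups alone 4420 higher and 3674 lower. Among the members, the deposited values gave 1 higher and 5 lower, and the compared groups alone 2 higher and 5 lower. The median difference of the 26 was -0.33, with 17 below 0, while the median of all probe sets was 0.10. The arrays of both inputs did not overlap for 10 of the 26 probe sets, and 40.3% of all probe sets had this property, so that the share of members separated was near the background.

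**Figure D2:**
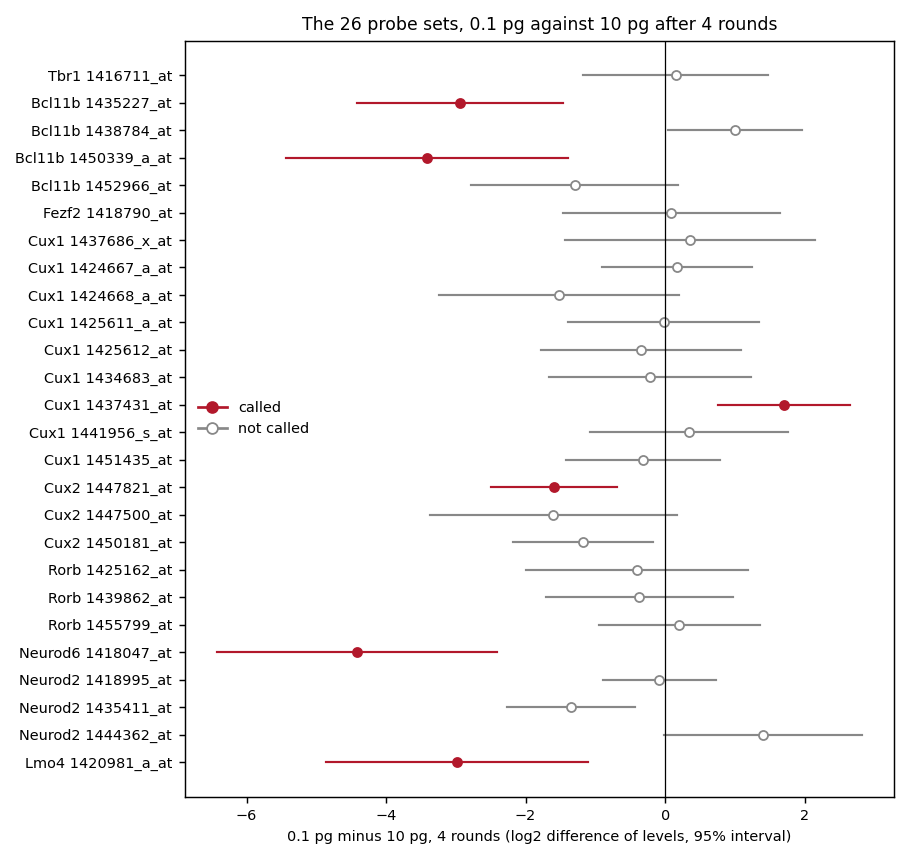
Difference between 0.1 pg and 10 pg after 4 rounds (x axis, log2, 0.1 pg minus 10 pg, 3 arrays each) for each of the 26 probe sets (y axis), with 95% intervals from limma. Filled red points are the 6 called at an adjusted p of 0.05, of which 5 lie below 0, from -4.42 for Neurod6 to -1.59 for Cux2 1447821_at, and Cux1 1437431_at lies above 0 at 1.70.

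Neurod6 (1418047_at), which is used as a marker of mature excitatory neurons, showed the largest difference of the 26. Its level was -2.04, -3.31 and -1.20 on the 0.1 pg arrays after 4 rounds, against 2.20, 2.84 and 1.66 on the 10 pg arrays. All 0.1 pg arrays lay below all 10 pg arrays. The difference was -4.42 (SE 0.949, limma adjusted p = 0.00896). At 1 pg after 4 rounds the amplifications disagreed, with 0.92, -2.76 and 2.06. Replicate 2 of 1 pg thus lay among the 0.1 pg arrays and the other two near or among the 10 pg arrays. The arrays after 2 rounds gave -0.72, -2.20 and 0.33 for 0.1 pg, -1.57, -1.71 and -0.78 for 1 pg, and 0.72 for 10 pg, and bulk gave 0.66. The 10 pg arrays after 4 rounds were therefore above bulk as well as above the 0.1 pg arrays. In the order of group means, 10 pg after 4 rounds did not overlap the next group, while bulk, 1 pg after 4 rounds, 0.1 and 1 pg after 2 rounds and 0.1 pg after 4 rounds each overlapped their neighbour.

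Bcl11b was followed by 4 probe sets, and they did not move together. The lead probe set, 1435227_at, was at -0.06, -0.13 and 0.05 on the 0.1 pg arrays after 4 rounds, against 3.59, 3.73 and 1.35 on the 10 pg arrays. The 0.1 pg arrays were tight and low, and replicate 3 of 10 pg was the lowest of its group yet above all of them. The difference was -2.94 (SE 0.697, limma adjusted p = 0.0157). Probe set 1450339_a_at was at 0.99, -0.73 and -2.23 at 0.1 pg and at 2.88, 2.23 and 3.15 at 10 pg, a difference of -3.41 (SE 0.955, limma adjusted p = 0.0355) with a wide spread at 0.1 pg. Probe set 1452966_at had 0.73 ± 0.125 at 0.1 pg and 2.03 ± 1.60 at 10 pg (SD, n = 3 each) and was not called (limma adjusted p = 0.262). Probe set 1438784_at pointed the other way, with 1.13, 0.90 and 1.09 at 0.1 pg against 0.32, 0.43 and -0.64 at 10 pg. Its groups did not overlap, but the difference of 1.00 was not called (SE 0.454, limma adjusted p = 0.179). In bulk these probe sets were at 2.68 for 1435227_at, 1.59 for 1450339_a_at, 2.01 for 1452966_at and 1.80 for 1438784_at.

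For the lead probe set of Bcl11b, the 3 groups of highest input ranked first, with means of 2.89 at 10 pg after 4 rounds, 2.68 in bulk and 1.98 at 10 pg after 2 rounds. The 4 groups of 0.1 and 1 pg lay between -0.05 and 0.48 and overlapped each neighbour in the order. The array of 10 pg after 2 rounds did not overlap the 1 pg arrays after 2 rounds below it. Probe set 1450339_a_at had the same 3 groups first by their means, but the other probe sets of Bcl11b did not. On the 1 pg arrays after 4 rounds, 1450339_a_at was at 3.16, -0.75 and -1.09. Replicate 1 of these thus lay above bulk and above every 10 pg array. The array of 10 pg after 2 rounds ranked last for 1452966_at, at -0.62. For 1438784_at, 0.1 pg after 4 rounds ranked above the groups of 10 pg.

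**Figure D3:**
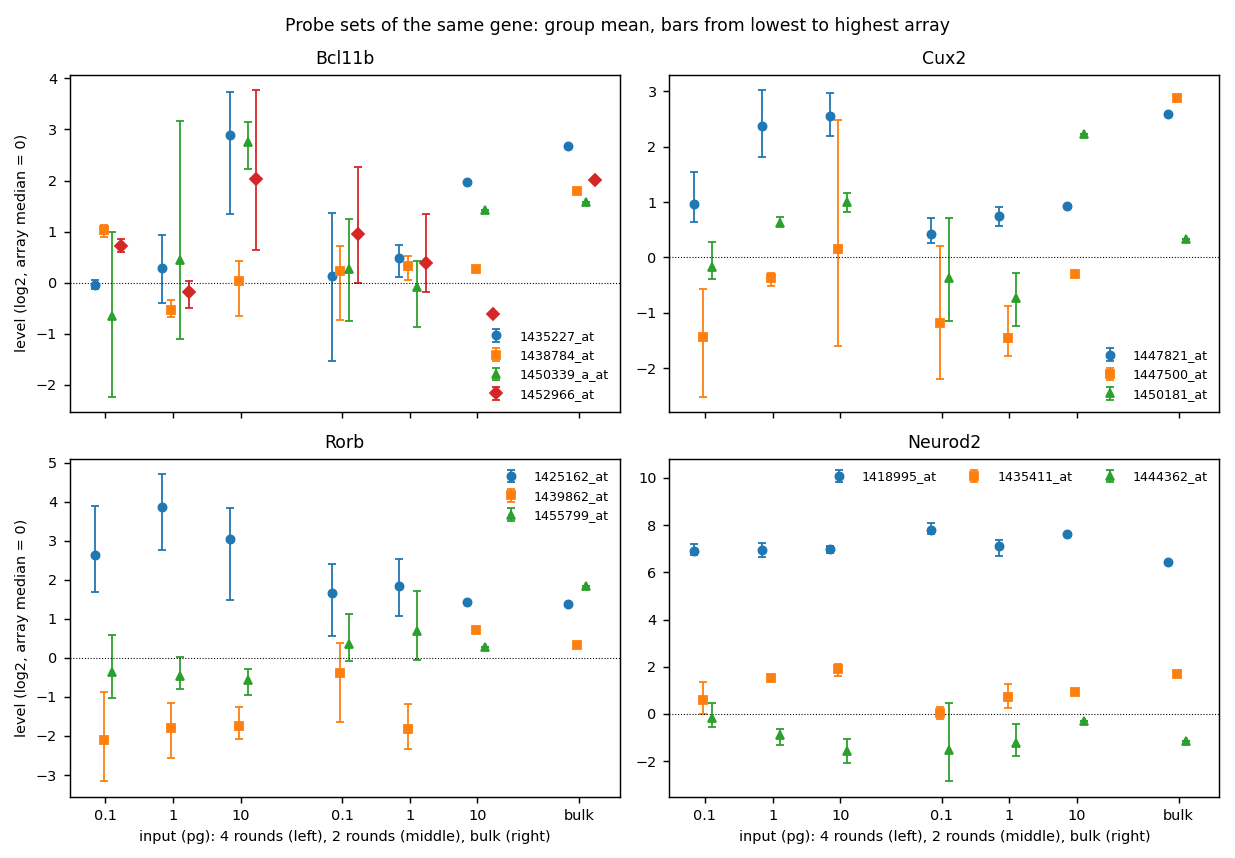
Group means of every probe set of Bcl11b, Cux2, Rorb and Neurod2 (y axis, log2, array median at 0), with bars from the lowest to the highest array, by input in pg (x axis) after 4 rounds, after 2 rounds and in bulk. Bcl11b 1435227_at and 1450339_a_at were both high at 10 pg after 4 rounds, whereas 1438784_at was not. Levels of different probe sets are not comparable with each other, only their course over the groups.

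Lmo4 (1420981_a_at) was at -0.77, -0.75 and -1.38 on the 0.1 pg arrays after 4 rounds, against 2.90, -0.46 and 3.60 on the 10 pg arrays. Replicate 2 of 10 pg was close to the 0.1 pg arrays, and the groups did not overlap only by that narrow margin. The difference was -2.98 (SE 0.887, limma adjusted p = 0.0461). At 1 pg after 4 rounds Lmo4 averaged -0.23 ± 0.645 (SD, n = 3), the single 10 pg array after 2 rounds had -1.38, and bulk had 1.53. A high level at 10 pg was thus seen on replicates 1 and 3 after 4 rounds and not on the other 2 arrays of that input.

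Of the Cux genes, Cux2 had the more uniform probe sets. The lead probe set, 1447821_at, after 4 rounds had levels of 0.64, 0.69 and 1.54 for 0.1 pg, 1.82, 2.28 and 3.03 for 1 pg, and 2.50, 2.97 and 2.19 for 10 pg. Every 0.1 pg array lay below every 1 pg and 10 pg array, and those at 1 and 10 pg overlapped each other and bulk, at 2.60. The difference between 0.1 and 10 pg was -1.59 (SE 0.429, limma adjusted p = 0.0296). After 2 rounds all 7 arrays lay between 0.27 and 0.92. The other probe sets of Cux2 were also lower at 0.1 pg but were not called: 1450181_at differed by -1.18 (limma adjusted p = 0.131) without overlap of the groups, and 1447500_at by -1.60 (limma adjusted p = 0.244).

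Cux1 is a large gene with alternative products, and its 9 probe sets covered a wide range. The called one, 1437431_at, had levels of 1.08, 0.60 and 1.34 on the 0.1 pg arrays, against -1.39, -0.53 and -0.17 on the 10 pg arrays. The difference was 1.70 (SE 0.449, limma adjusted p = 0.0268), and all 0.1 pg arrays were above all 10 pg arrays. The 0.1 pg arrays after 2 rounds were also high for it, at 2.40, 1.47 and 1.60, whereas the 10 pg array after 2 rounds had -1.38 and bulk -0.95. The lead probe set, 1437686_x_at, whose suffix marks probes that may bind other transcripts, averaged 2.27 ± 0.218 at 0.1 pg and 1.92 ± 0.388 at 10 pg (SD, n = 3 each). The 8 probe sets of Cux1 not called had differences between -1.53 and 0.36, with limma adjusted p between 0.253 and 0.991. Among them 1424668_a_at differed by -1.53, 1425612_at by -0.35, 1424667_a_at by 0.17 and 1441956_s_at by 0.34.

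The remaining genes were not called between these inputs. Tbr1 differed by 0.15 (95% interval -1.17 to 1.48, limma adjusted p = 0.910) and Fezf2 by 0.09 (95% interval -1.47 to 1.65, limma adjusted p = 0.956). The 3 probe sets of Rorb differed by -0.40, -0.37 and 0.20, with limma adjusted p between 0.758 and 0.855. For Neurod2, 1418995_at differed by -0.08 (95% interval -0.89 to 0.72, limma adjusted p = 0.920). Its probe set 1435411_at was at 0.34, 0.00 and 1.37 at 0.1 pg against 2.12, 2.03 and 1.60 at 10 pg, without overlap, and missed the threshold (difference -1.35, limma adjusted p = 0.0637). The third, 1444362_at, was at -0.46, 0.46 and -0.53 at 0.1 pg against -2.06, -1.59 and -1.08 at 10 pg, a difference of 1.40 in the opposite direction (limma adjusted p = 0.204).

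The calls rested on few arrays. When 1 array of either input was left out, between 0 and 4 of the 26 probe sets were called. Neurod6 was called in 5 of the 6 such fits, with differences from -4.91 to -3.85, and missed the threshold without replicate 2 of 0.1 pg (limma adjusted p = 0.0545). Bcl11b 1435227_at and Cux2 1447821_at were called in 2 of 6, and Bcl11b 1450339_a_at, Cux1 1437431_at and Lmo4 in 1 of 6. Without replicate 2 of 0.1 pg no member was called. Without replicate 1 of 10 pg only Neurod6 was, without replicate 2 of 10 pg Neurod6 and Lmo4, and without replicate 1 of 0.1 pg Neurod6 and Bcl11b 1450339_a_at. Without replicate 3 of 10 pg the calls were Bcl11b 1435227_at, Cux1 1437431_at, Cux2 1447821_at and Neurod6, and without replicate 3 of 0.1 pg Neurod2 1435411_at took the place of Cux1 1437431_at among these. No difference of the 6 changed sign in any of these fits. The calls over all probe sets also dropped, to between 1504 and 3811 from 3992 with all arrays.

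**Figure D4:**
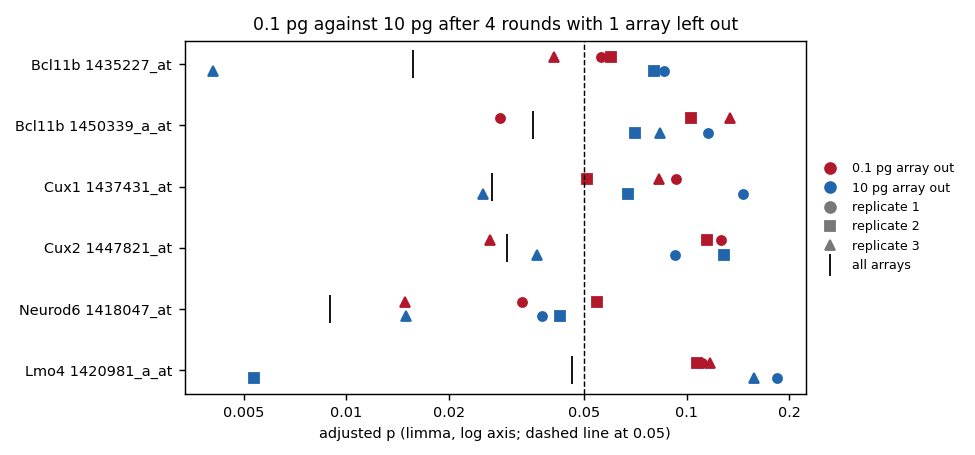
Adjusted p from limma (x axis, log scale, dashed line at 0.05) of the 6 probe sets called between 0.1 and 10 pg after 4 rounds (y axis), with all arrays (black bar) and with 1 array of 0.1 pg (red) or 10 pg (blue) left out, marker shape giving the replicate. Neurod6 stayed below 0.05 in 5 of 6 fits, and Lmo4 was below it with all arrays and without replicate 2 of 10 pg.

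Between 1 and 10 pg after 4 rounds, a comparison that shares its 10 pg arrays with the one above, limma called 0 of the 26 probe sets, against 0.657% of all. At an unadjusted p of 0.05 there were 5 of 26, against 9.51% of all. The methods' t-test called 0 of the 26 and also 0 of all probe sets. The 5 were 3 probe sets of Bcl11b, Neurod6 and Lmo4. The nearest was Bcl11b 1435227_at, at 0.93, -0.40 and 0.35 at 1 pg against 3.59, 3.73 and 1.35 at 10 pg (difference -2.60, SE 0.697, limma adjusted p = 0.126). It was called when replicate 3 of 10 pg was left out, a fit that called 353 of all probe sets, against 296 with all arrays. Bcl11b 1452966_at differed by -2.20 (limma adjusted p = 0.233), also without overlap.

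Between 0.1 and 1 pg, averaged over 4 and 2 rounds, limma called 0 of 26, against 1.24% of all probe sets. At an unadjusted p of 0.05 there were 6 of 26, against 15.1% of all. The methods' t-test called 0 of the 26 and also 0 of all probe sets. Cux1 1437431_at was nearest, at 1.41 ± 0.598 on the 0.1 pg arrays and 0.25 ± 0.459 on the 1 pg arrays (SD, n = 6 each; difference 1.17, limma adjusted p = 0.0871). Another probe set of Cux1, 1434683_at, differed in the opposite direction, by -1.35 (limma adjusted p = 0.187). Its levels after 4 rounds were 0.72, 0.76 and 2.35 for 0.1 pg against 2.63, 2.85 and -0.34 for 1 pg. Those after 2 rounds were -0.72, -0.22 and -0.48 for 0.1 pg against 1.90, 1.59 and 1.89 for 1 pg. The groups were apart after 2 rounds and overlapped after 4, and without replicate 3 of 1 pg after 4 rounds this probe set was called. That fit called 457 of all probe sets, against 559 with all arrays.

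The rounds of amplification were compared at 0.1 and 1 pg together. For 4 against 2 rounds limma called 0 of 26, against 3.91% of all, with 9 of 26 at an unadjusted p of 0.05, against 21.8% of all. The methods' t-test called 0 of the 26 and only 3 of all probe sets. Cux2 1447821_at was nearest, with 1.67 ± 0.924 on the arrays of 4 rounds and 0.58 ± 0.256 on those of 2 (SD, n = 6 each, difference 1.08, SE 0.304, limma adjusted p = 0.0562). On the arrays of 2 rounds its levels lay near the array median, and several of them were exactly those of other member probe sets. Rorb gave opposite signs by probe set, with 1425162_at higher after 4 rounds (3.26 ± 1.17, against 1.75 ± 0.778 with 2; difference 1.51, limma adjusted p = 0.115) and 1455799_at lower (-0.41 ± 0.601, against 0.52 ± 0.741 with 2; difference -0.93, limma adjusted p = 0.175; SD, n = 6 arrays each). Without replicate 2 of 0.1 pg after 2 rounds, 3 probe sets were called, Cux1 1451435_at, Cux2 1447821_at and Cux2 1450181_at, all higher after 4 rounds. Without replicate 3 of that group, Neurod2 1444362_at was called. Over all probe sets the calls were 2257 in the first of these fits and 2872 in the second, against 1759 with all arrays.

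Whether the effect of rounds differed between 0.1 and 1 pg was tested as an interaction, which called 0 of 26, against 3.59% of all. At an unadjusted p of 0.05 there was 1 of 26, Bcl11b 1438784_at (difference of effects 1.66, SE 0.642, limma adjusted p = 0.152), against 20.9% of all. The methods' t-test was not run for it. Leaving out an array gave 1 call at most. In the 0.1 pg arrays with 2 rounds this was Cux1 1425611_a_at when replicate 1 was dropped and Cux1 1437686_x_at when replicate 3 was, and it was Neurod6 when replicate 2 of 1 pg with 4 rounds was. Over all probe sets these fits called 1746, 3331 and 2647 in that order, against 1619 with all arrays.

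Against bulk, the mean of the 6 amplified groups gave 0 calls of 26 by limma, against 1.1% of all probe sets, and 5 of 26 at an unadjusted p of 0.05, against 13.4% of all. The methods' t-test was not run, since bulk is 1 array, whose spread is assumed to be that of the other groups. For 4 of 26 probe sets all 16 amplified arrays lay below bulk, where 7.21% of all probe sets did so, and for 1 they all lay above, where 6.67% did. Tbr1 was the nearest to a call. Its level ran from -1.82 to 1.04 over the 16 amplified arrays, with a median of -0.84, against 2.60 in bulk, a difference of -3.30 (SE 0.795, limma adjusted p = 0.0570). No amplified array reached the bulk level, and Tbr1 stood at the 89.1st percentile there and at mean percentiles from 13.3 to 47.2 in the amplified groups. The 1 pg arrays after 4 rounds had the lowest group mean and were closely alike, at -1.66, -1.57 and -1.59. Tbr1 was called when replicate 1 or replicate 3 of 0.1 pg with 2 rounds, replicate 2 of 10 pg with 4 rounds, or the lone 10 pg array with 2 rounds was left out. Over all probe sets these fits called 717, 721, 459 and 749 in that order, against 494 with all arrays.

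The other probe sets with every amplified array below bulk were Cux2 1447500_at, Bcl11b 1438784_at and Rorb 1455799_at. Cux2 1447500_at ranged from -2.52 to 2.49 on the amplified arrays against 2.87 in bulk (difference -3.64, SE 1.06, limma adjusted p = 0.122). It was called without replicate 1 of 10 pg after 4 rounds, the amplified array where it was highest. That fit called 433 of all probe sets, against 494 with all arrays. Bcl11b 1438784_at ranged from -0.72 to 1.13 against 1.80 (difference -1.57, limma adjusted p = 0.229), and Rorb 1455799_at from -1.03 to 1.71 against 1.83 (difference -1.85, limma adjusted p = 0.245). Neurod2 1418995_at lay above bulk on all 16 amplified arrays in these scaled levels, from 6.64 to 8.11 against 6.42 (difference 0.80, limma adjusted p = 0.517). The 10th to 90th percentile distance by which levels were divided was widest on bulk, at 4.97, against 4.22 to 4.85 elsewhere. Its part in this order was not tested. The percentile of this probe set, which the scaling leaves unchanged, was 99.5 in bulk and averaged 99.7 to 99.8 in the amplified groups.

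**Figure D5:**
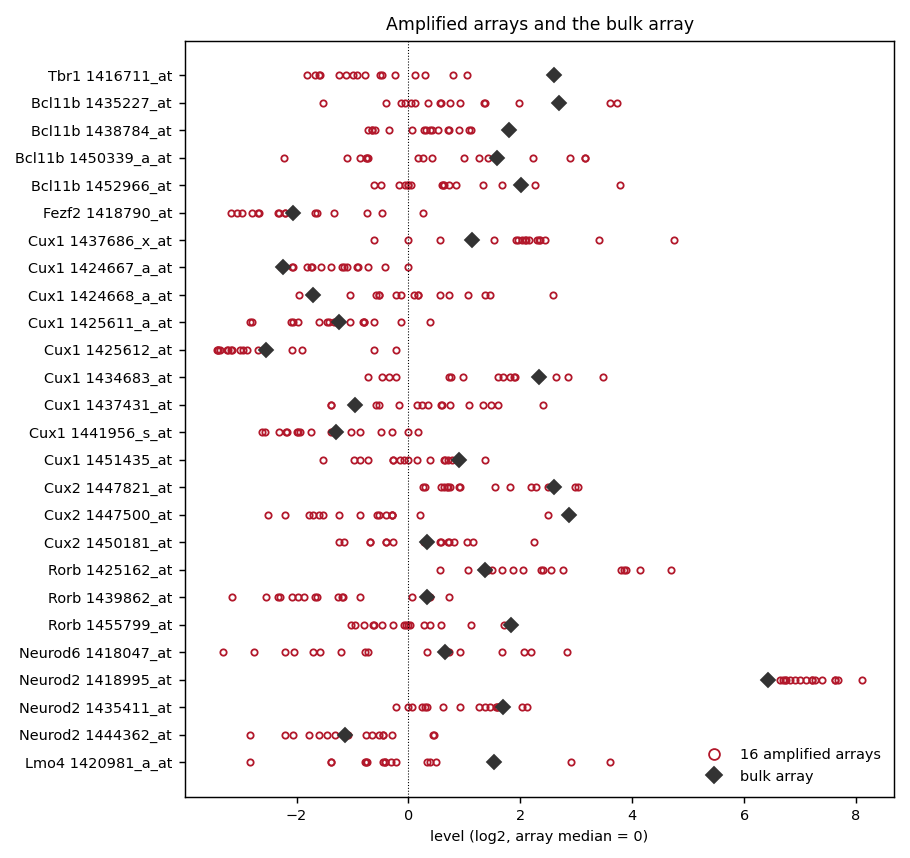
Level (x axis, log2, array median at 0) of the 26 probe sets (y axis) on the 16 amplified arrays (red circles) and on the bulk array (black diamond). For Tbr1, Cux2 1447500_at, Bcl11b 1438784_at and Rorb 1455799_at the bulk array lies above all 16 amplified arrays, and for Neurod2 1418995_at below all of them. Levels are those after range scaling, on which values near the top of an array depend strongly.

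Probe sets of the same gene often followed different courses over the arrays. Over the 17 arrays the 3 pairs of Neurod2 probe sets correlated at -0.38, -0.24 and -0.17. Rorb 1425162_at correlated at -0.51 with 1455799_at and at -0.36 with 1439862_at, and those with each other at 0.55. Cux2 was the gene whose pairs were all positive, at 0.40, 0.54 and 0.60, and Bcl11b had 5 of 6 pairs above 0, up to 0.59 between 1435227_at and 1450339_a_at. The 36 pairs of Cux1 had a median of -0.04 and ran from -0.65 to 0.51. Over all 51 pairs within a gene the median was -0.01, beside 0.03 over the 274 pairs between genes. All of these share the same 17 arrays and their ties, and they are given as a description.

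Between genes the closest pair of probe sets was Cux2 1447821_at with Neurod2 1435411_at, at r = 0.85 over the 17 arrays, and the most opposed was Cux1 1437431_at with Neurod2 1435411_at, at -0.71. Among lead probe sets Cux2 and Neurod6 correlated at 0.64, Bcl11b and Neurod6 at 0.62, and Bcl11b and Cux1 at -0.50. Fezf2, which is known for its high expression in layer 5 during development, lay at the 7.39th percentile in bulk and at mean percentiles from 3.23 to 25.5 in the amplified groups. Its highest single level was 0.27, on replicate 3 of 0.1 pg after 2 rounds. That was a tied value, which Cux2 1447821_at and Bcl11b 1450339_a_at also had on this array.

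Of 18193 genes, each by its lead probe set, those most like the members over the 17 arrays were named as the 2 highest Pearson correlations. Bcl11b was closest to Usp34 (0.92), a deubiquitinase, and Bdnf (0.88), a neurotrophin. Cux2 was closest to Igf2bp1 (0.95), an mRNA-binding protein, and Zfand2b (0.93). Neurod6 was closest to Fbxo5 (0.88) and Usp15 (0.87), Lmo4 to St3gal4 (0.86) and Rph3a (0.85), and Tbr1 to Psmd14 (0.82), a proteasome subunit, and Mrps30 (0.81), a mitochondrial ribosomal protein. Neurod2 was closest to Rflnb (0.99) and Etl4 (0.99), Cux1 to Prss32 (0.95) and Rab38 (0.90), Rorb to Cntn4 (0.89) and Slc39a4 (0.85), and Fezf2 to BC065403 (0.80) and Treh (0.79). The lead probe set of Neurod2 stood near the top of the arrays in every group, at mean percentiles from 99.5 to 99.8. A level there depends strongly on the range by which its array was divided, and the part of this in the correlations of Neurod2 was not tested. No member was among the nearest genes of another.

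Other genes of the same network were followed by lists, each gene by its lead probe set, at 0.1 against 10 pg after 4 rounds, where 9.97% of all genes were called and the median over all genes was 0.13. Of 19 other projection neuron transcription factors measured, 3 fell and 0 rose, with a median difference of -0.14. They were Pou3f3, a POU factor of upper layer neurons (0.11 at 0.1 pg, 4.03 at 10 pg, difference -3.92, limma adjusted p = 0.0181), Zbtb18, a zinc finger repressor (0.84 at 0.1 pg, 4.59 at 10 pg, difference -3.75, limma adjusted p = 0.000896), and Emx2, a homeobox factor of cortical progenitors (-1.87 at 0.1 pg, 0.69 at 10 pg, difference -2.56). Emx2 had the smallest change of the 3, and naming it here was decided after its value was seen. Of 11 relatives of the members in the same gene families, 1 fell, Neurod1 (-1.01 at 0.1 pg and 0.85 at 10 pg, difference -1.87), and the median was -0.28. Of 10 protein partners limma called 0, with a median of 0.26 and 1 at an unadjusted p of 0.05, where 27.1% of all genes were, and the methods' t-test called 0. Of 14 targets and layer markers 3 fell and 1 rose, with a median of -0.85. Lamp5, a marker of upper layers and of some interneurons, was at -1.73 at 0.1 pg and 4.36 at 10 pg (difference -6.09), Pcp4, a calmodulin-binding peptide of deep layers, at -0.05 at 0.1 pg and 4.52 at 10 pg (difference -4.57), and Rprm, also named after its value was seen, at -0.36 at 0.1 pg and 1.69 at 10 pg. Rasgrf2, an exchange factor of upper layers, was at 4.67 at 0.1 pg and 2.24 at 10 pg (difference 2.44).

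Calls were also found in the lists of other cells. Of 9 interneuron transcription factors 2 fell, Dlx2 (difference -3.74) and Nr2f2 (difference -3.23), and of 13 glial and vascular transcription factors 1 fell, Hes5 (difference -2.68). Among markers, 1 of 9 for astrocytes fell (Glul, difference -2.25), 1 of 8 for endothelium (Kdr, -2.97), 1 of 8 for inhibitory neurons (Slc32a1, -2.83), 1 of 6 for excitatory neurons (Neurod6 itself) and 1 of 11 for other brain regions (Drd1, -2.31), 1 of 8 for oligodendrocytes rose (Mbp, 2.99), and limma and the methods' t-test each called 0 of 9 for microglia, of which 1 had an unadjusted p under 0.05. The excitatory list holds the members Neurod6 and Tbr1. The mean level of its other 4 measured markers was between 2.35 and 2.74 on the 0.1 pg arrays and between 2.18 and 3.08 on the 10 pg arrays, which overlap, and that of the inhibitory markers was between 0.30 and 0.64 on the 0.1 pg arrays and between 0.97 and 2.06 on the 10 pg arrays. The part of the inhibitory markers in the members' differences was not tested. All arrays carried mRNA of 1 preparation, so the mix of cells behind it was the same for the 0.1 pg and the 10 pg arrays.

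In the other comparisons the lists held few calls, given here against the share of all genes. Between 1 and 10 pg after 4 rounds, where 0.654% of genes were called, Pcp4 (difference -3.19), Lamp5 (-3.90) and Dlx2 (-3.86) fell. Between 0.1 and 1 pg over both rounds, where 1.5% were, Zbtb18 (-2.79), Grin2b, an NMDA receptor subunit (-1.76), Lamp5 (-2.39) and Glul (-2.10) fell. For 4 against 2 rounds, where 4.27% were, Zbtb18 (2.11) and Drd1 (1.68) rose, and Tcf4, the helix-loop-helix partner of the Neurod factors (-1.61), and Cbln1 (-1.29) fell. For the difference in the effect of rounds, where 4% were, Tcf12 (5.09) and C1qa (3.91) were called above 0 and Id2 (-3.10) and Eomes (-2.58) below. Against bulk limma called 0 of the 133 genes of these lists, where 0.819% of all genes were called, and 20 of 133 had an unadjusted p under 0.05, where 13.4% of all genes did.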

How the data were processed

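Affymetrix mouse arrays measured adult mouse cortex mRNA in 17 hybridizations, and the values analysed are the log2 values the authors deposited, summarized with RMA 2.0 (the methods name the upper decile statistic). Array medians were 5.64 to 6.01, so the median centering and range scaling of the methods are not in the deposited log2 values. They were applied here, by subtracting the median of every array and dividing by its 10th to 90th percentile distance, and a factor of 4.63, the mean of these distances, returned the values to a log2 scale. The build behind the deposited values is not given in the sources used here, so no coordinates of the reference gene table, which is on GRCm38, are reported. Of 45101 probe sets 64 controls were left out, and of the rest 34945 carry 1 gene symbol in the array annotation, 932 several and 9160 none; 10 listed genes had no probe set of a single symbol and were not analysed here.

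A linear model with the means of 7 groups was fitted to every probe set (limma 3.58.1, R 4.3.3), and contrasts were tested with eBayes at 16.4 total degrees of freedom, with p-values adjusted by Benjamini and Hochberg over 45037 probe sets and a threshold of 0.05. Groups of a single array take their spread from the replicated groups. The methods' t-test, also with a false discovery rate of 0.1%, was run on the same values as an alternative, beside other scalings, filters and sets of arrays. The fit was tested on simulated data. No more than 0.926% of values were identical between any 2 arrays. Tables were handled with python 3.11.15 and pandas 2.3.3 and figures drawn with matplotlib 3.10.9.

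The members and gene lists were chosen with earlier results of these data known. Every member probe set is named, and for each list the 2 called genes with the largest change in each direction, except where the text says otherwise. The number of arrays limits the precision.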

Additional observations from a re-analysis of the deposited data

How the results depend on the processing

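Between 0.1 and 10 pg after 4 rounds, the 6 calls among the 26 probe sets became 6 with the deposited values, 7 with median centering alone, 7 with quantile normalization and 5 without dim probe sets, and the same 6 stayed called under the first 3 of these. Dim probe sets were those with a mean over the arrays below the array median. Neurod6 and Lmo4 were among them and so were not tested in that setting. With the compared groups alone there were 7, without Lmo4, and with only the arrays of 4 rounds and bulk, an alternative chosen after seeing the data, 8, without Bcl11b 1450339_a_at. Array weights gave 11, while a false discovery rate of 0.001 and the methods' t-test, at 0.05 or at 0.001, gave 0. Leaving out 1 array gave 0 to 4. Over all probe sets the calls were 3992, against 8094 for the compared groups alone, 6077 for the arrays of 4 rounds and bulk and 13692 with weights. The methods' t-test called 1580 of all at 0.05 and 0 at 0.001, and limma 294 at the lower rate. The cause was not tested.

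Between 1 and 10 pg, weights gave 2 calls, both of Bcl11b, and leaving out 1 array 0 to 1. For 0.1 against 1 pg, removing dim probe sets gave 1 (Cux1 1437431_at), and leaving out 1 array 0 to 1. For 4 against 2 rounds, median centering alone, quantile normalization and removing dim probe sets gave 1 each, and leaving out 1 array 0 to 3. The difference in the effect of rounds gave 0 to 1. Against bulk, Tbr1 was the 1 call with the deposited values, with median centering alone, with weights, without the single 10 pg array after 2 rounds and with the arrays of 4 rounds and bulk alone. Over all probe sets these settings called 712, 871, 1667, 749 and 631 in that order, against 494 in the main fit. Leaving out 1 array gave 0 to 1 of the 26.

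Replicate numbers do not pair the arrays: deviations from the group means correlated at -0.01 on average over the 30 pairs with the same number and at 0.00 over the 60 with different numbers. With the number as a replicate block the calls were 6, the same probe sets, between 0.1 and 10 pg and 0 in each other comparison. By the median over probe sets instead of the lead, the difference of Bcl11b between 0.1 and 10 pg was -1.54 and that of Neurod2 -1.20. Member levels near the array median, which many probe sets share on the arrays after 2 rounds, are the least resolved.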
